A study of Mus musculus with 31 samples.

Results

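The genes described here mark microglia, the resident macrophages of the brain. They were chosen as a list of 9 gene symbols, namely Tyrobp, Cx3cr1, P2ry12, Aif1, Csf1r, C1qa, C1qb, Trem2 and Ctss, and were looked up by symbol in the platform annotation. The annotation held 8 of the 9 on 10 probes, among 15096 named genes. Csf1r had no probe under its symbol and was not analysed here. Trem2 had 3 probes and each of the other 7 genes had 1.

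The arrays compared whole brains of 31 BXD/TyJ strains with that of C57BL/6J in 2 colours, with 1 array for each strain. BXD lines were bred from C57BL/6J and DBA/2J by repeated inbreeding, so each carries at most loci the allele of one or the other parent in homozygous form. All mice were males aged 8 weeks, RNA of 3 animals was pooled per strain, and 20 ug of the pool was labelled with Alexa Fluor 647. The C57BL/6J pool, also 20 ug and from males of the same age, was labelled with Alexa Fluor 555 together with 2 ug of a spike-in mix, and no dyes were swapped. The value of a gene is the deposited log ratio of the channels, taken as log2 and as strain over C57BL/6J; neither the base nor the direction was stated, and in the other direction every sign would turn. A strain had 1 array of 1 pool, so a difference between strains cannot be told apart from a difference between arrays. In whole-brain RNA, fewer microglia and less RNA per microglial cell cannot be told apart either. Log ratios hold no level, so the tissue could not be checked by the abundance of its markers.

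Microglia survey brain tissue, clear debris and prune synapses. Cx3cr1 is the receptor for the neuronal chemokine fractalkine, P2ry12 is a receptor for ADP that guides microglial processes to injury, and Trem2 is a lipid-sensing receptor that signals through the adaptor Tyrobp. C1qa and C1qb encode chains of C1q, which starts the classical complement pathway and can tag synapses. Aif1, also known as Iba1, is a calcium-binding protein of the actin cytoskeleton, and Ctss is a lysosomal protease.

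Microglial genes depend on PU.1, the product of Spi1, which binds DNA around a GGAA core, often as GGAAGT. The RefSeq promoter table (GRCm38.p6) held 6 of the 8 genes. The 250 bases before the start of Cx3cr1, P2ry12 and C1qb are shown because these genes had the strongest correlations among the members; capitals mark GGAAGT, read on either strand (ACTTCC on the other strand). The regions are chr9:120068297-120068546 on the minus strand for Cx3cr1, chr3:59262986-59263235 on the minus strand for P2ry12 and chr4:136886201-136886450 on the minus strand for C1qb, each printed 5′ to 3′ in the direction of the gene.
Cx3cr1: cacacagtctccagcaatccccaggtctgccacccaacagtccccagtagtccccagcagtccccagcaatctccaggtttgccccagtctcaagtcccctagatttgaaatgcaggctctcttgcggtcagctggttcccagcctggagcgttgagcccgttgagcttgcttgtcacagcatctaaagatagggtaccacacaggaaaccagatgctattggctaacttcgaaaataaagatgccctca
P2ry12: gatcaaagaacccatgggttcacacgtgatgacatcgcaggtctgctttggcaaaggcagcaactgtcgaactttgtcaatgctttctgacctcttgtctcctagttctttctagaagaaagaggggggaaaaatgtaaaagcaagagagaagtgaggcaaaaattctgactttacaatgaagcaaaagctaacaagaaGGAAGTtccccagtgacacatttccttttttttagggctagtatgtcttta
C1qb: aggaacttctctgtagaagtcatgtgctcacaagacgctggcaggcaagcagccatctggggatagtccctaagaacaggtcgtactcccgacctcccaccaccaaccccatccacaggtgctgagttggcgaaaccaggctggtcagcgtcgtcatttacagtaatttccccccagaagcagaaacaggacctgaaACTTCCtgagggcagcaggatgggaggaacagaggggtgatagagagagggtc
The motif began 51 bases before the start in P2ry12 and 53 bases before it in C1qb. It was in 2 of the 6 promoters and in 19.7% of all 32851 promoter windows of this length, and these letters were not in the windows of Cx3cr1, Aif1, Trem2 and Ctss.

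The arrays fell into 3 groups that bear on every result. On the first principal component of the features other than the members, which held 28.7% of the variance, the strains BXD38, BXD36, BXD28, BXD23, BXD20, BXD8 and BXD6 scored 0.27 or more and the rest 0.05 or less. On the second, with 11.9%, the strains BXD42, BXD40, BXD39, BXD34, BXD33, BXD27, BXD22 and BXD15 scored 0.25 or more and the rest 0.08 or less. The labels give no batch for these 7 and 8 arrays, and the other 16 stood apart on neither component. A second feature of the table is the place of a spot in each run of 8. Named probes at place 8, without those for Gapdh, had a mean log ratio of −0.54, against −0.01 to 0.08 at places 1 to 7, and the probes of Cx3cr1 and P2ry12 lay at place 8.

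The first comparison set the mean of each microglial gene over the strains against 0, the level of C57BL/6J. Of the 8 measured genes 6 passed limma's moderated test, 2 with a positive mean (Tyrobp and Aif1) and 4 with a negative one (C1qa, P2ry12, Cx3cr1 and Ctss). The means thus did not share a sign. Over all 21262 features 76.1% passed, 42.1% above 0 and 33.9% below it, so a share of 6 in 8 is near the background. The median of the 8 means was −0.22, against 0.03 over named genes. The 8 include Cx3cr1 and P2ry12 at place 8, and named genes with a probe there had a median of −0.43. The deposited median of the 8 thus includes the level of the place. With the median of all spots at the same place subtracted on each array, the means ran from −0.94 for C1qa to 0.51 for Tyrobp. Those of Tyrobp and Aif1 were above 0 and the others below it. The median of the 8 was not taken on these values.

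**Figure D1:**
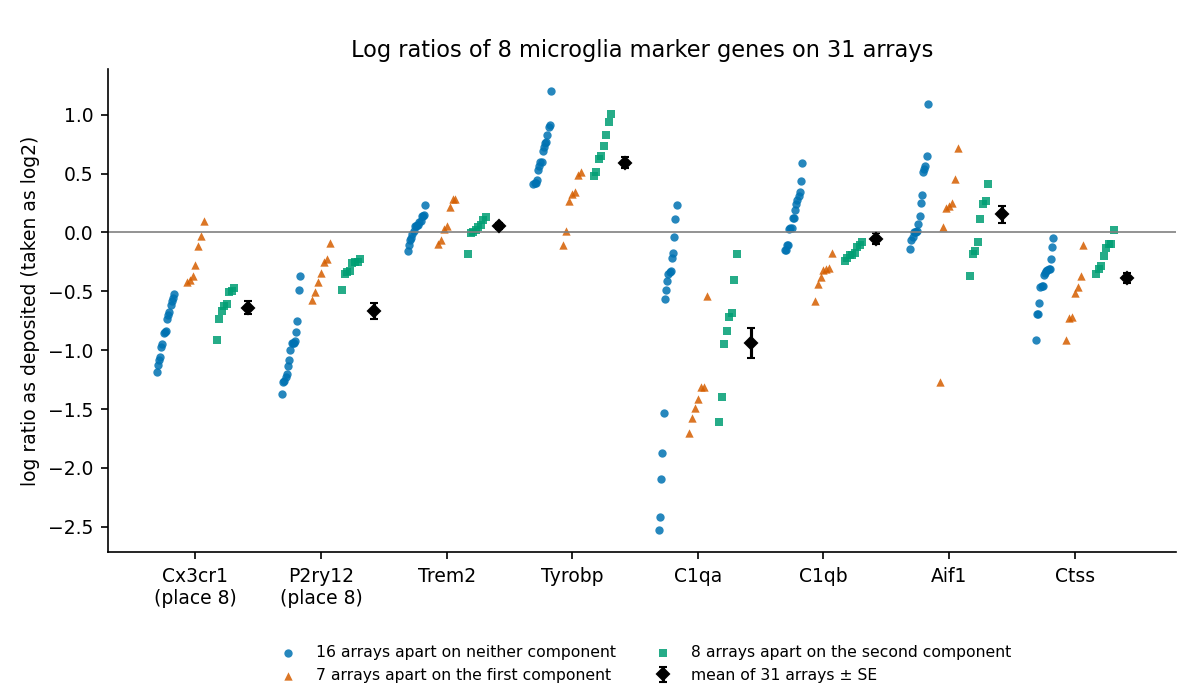
Log ratio (log2, vertical axis) of each of the 8 measured genes on the 31 arrays. Circles are the 16 arrays apart on neither component, triangles the 7 apart on the first and squares the 8 apart on the second; diamonds are means over 31 arrays with the SE. Values of C1qa run from −2.53 to 0.24, those of Trem2 from −0.18 to 0.28.

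Among receptors, Cx3cr1 had log ratios from −1.18 on BXD11 to 0.10 on BXD8, with a median of −0.63. All but 1 of the 31 arrays were below 0, and the mean was −0.64 ± 0.06 (SE, n = 31; limma adjusted p = 3.17e-12). Values ran from −1.18 to −0.52 on the 16 arrays, from −0.91 to −0.47 on the 8 and from −0.42 to 0.10 on the 7, so the 7 arrays lay above all others while the 16 and the 8 overlapped.

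P2ry12 ran from −1.38 on BXD2 to −0.09 on BXD6, with a median of −0.50. It was below 0 on all 31 arrays. The same sign on all arrays, in either direction, together with a pass was found in 10.2% of all features, and the share at place 8 was not taken. The mean of P2ry12 was −0.67 ± 0.07 (SE, n = 31; limma adjusted p = 2.31e-10). On the 16 arrays the median was −0.97, against −0.35 on the 7 and −0.29 on the 8. In the best division of P2ry12 values into 2 parts, all 14 low strains belonged to the 16 arrays, and the gap ran from −0.75 to −0.58. The 2 parts held 85.2% of its variance, more than in 99.2% of named genes, and the other 2 of the 16, BXD5 and BXD16, lay in the high part.

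Place 8 bears directly on these 2 receptors. Subtracting on each array the median of all spots at the same place brought Cx3cr1 to −0.22 ± 0.05 and P2ry12 to −0.25 ± 0.06 (SE, n = 31). Both still passed, with limma adjusted p of 4.73e-05 and 0.00026, but the larger part of their size went with the place. After this step 5 of the 8 genes passed, Tyrobp with a positive mean and 4 with a negative one, where 73.6% of features did (38.5% positive and 35.1% negative). Among named genes with a probe at place 8, which include 2 of the 8 members, 85.4% passed in the deposited values, 78.0% with a negative mean and 7.44% with a positive one. Among named genes without such a probe, which include the other 6, 74.2% passed, 27.5% with a negative and 46.7% with a positive mean.

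**Figure D2:**
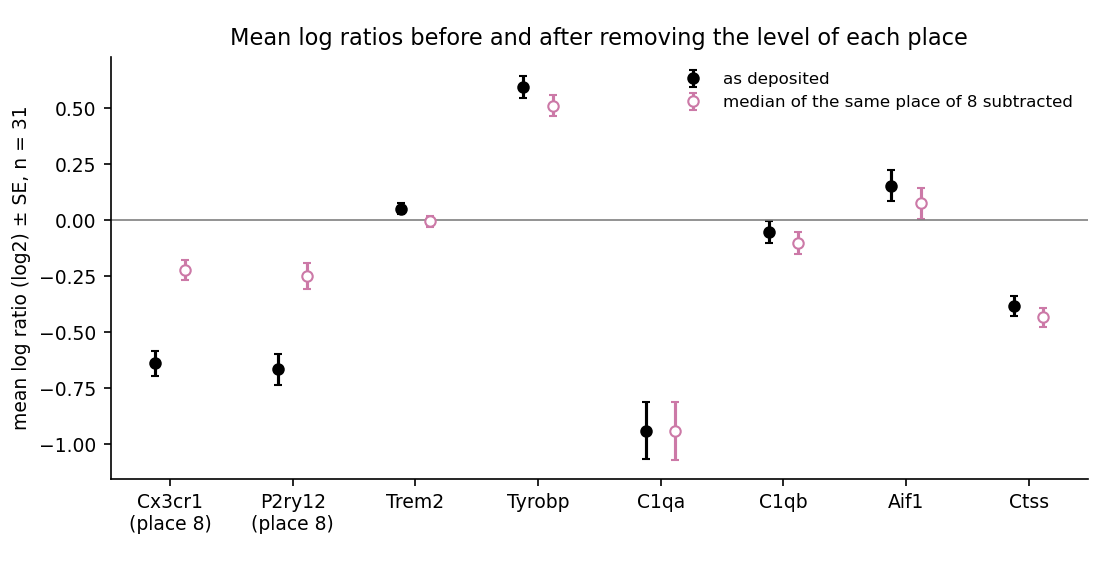
Mean log ratio (log2, vertical axis) with SE over 31 arrays for each gene, as deposited (filled) and after the median of the same place of 8 was subtracted on each array (open). Cx3cr1 moves from −0.64 to −0.22 and P2ry12 from −0.67 to −0.25, while C1qa stays at −0.94.

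Trem2, averaged over its 3 probes, ran only from −0.18 on BXD39 to 0.28 on BXD20, with a median of 0.06. Its mean of 0.05 ± 0.02 (SE, n = 31) did not pass (limma adjusted p = 0.0541). The probes alone had means of 0.07 ± 0.04, 0.04 ± 0.04 and 0.05 ± 0.04, with adjusted p from 0.169 to 0.442 over all spots. These 3 probes carry the same accession, yet their values did not follow each other over the strains. The correlations between them were −0.311, 0.137 and −0.0928 (permutation test, two-sided, adjusted p over 3 pairs from 0.262 to 0.619). Averaging left an SD of 0.12, below those of the probes alone, 0.24, 0.24 and 0.19.

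Tyrobp, the adaptor that carries the signal of Trem2, had the highest mean of the members. Its log ratio ran from −0.11 on BXD36 to 1.202 on BXD5, with a median of 0.60, and 30 of 31 arrays were above 0. The mean was 0.59 ± 0.05 (SE, n = 31; limma adjusted p = 1.30e-12), higher than in 97.3% of named genes. It was 0.26 on the 7 arrays, against 0.67 on the 16 and 0.72 on the 8, and positive in all 3 groups. Removing the level of the place left 0.51 ± 0.05. Trem2 and Tyrobp, receptor and adaptor, had a correlation of −0.337 over the strains (Spearman's rho −0.351; permutation p = 0.0623, adjusted p = 0.349 over 28 pairs), which did not pass.

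The complement genes differed from each other. C1qa had the lowest mean of the members and the widest spread, from −2.53 on BXD12 to 0.24 on BXD32 with a median of −0.72. On 29 of 31 arrays it was below 0, and the mean was −0.94 ± 0.13 (SE, n = 31; limma adjusted p = 7.10e-08). Its SD over the strains, 0.75, was larger than in 99.1% of named genes, and its SD within array groups larger than in 99.8%.

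C1qa values did not spread evenly, a feature looked at after the values were seen. The low part of the best division held 13 strains at −1.31 or lower and the high part 18 at −0.95 or higher, with 78.8% of the variance between them, more than in 94.3% of named genes. The low strains came from all 3 array groups. Of the 16 arrays, BXD12, BXD24, BXD9, BXD5 and BXD31 lay at −1.54 or lower and the other 11 at −0.56 or higher, with nothing in between. Of the 7 arrays, 6 lay between −1.70 and −1.31 and BXD20 alone at −0.54, and of the 8, BXD15 and BXD33 lay at −1.40 or lower and the other 6 at −0.95 or higher. No genotype was used, so whether these strains share a parental allele was not tested.

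**Figure D3:**
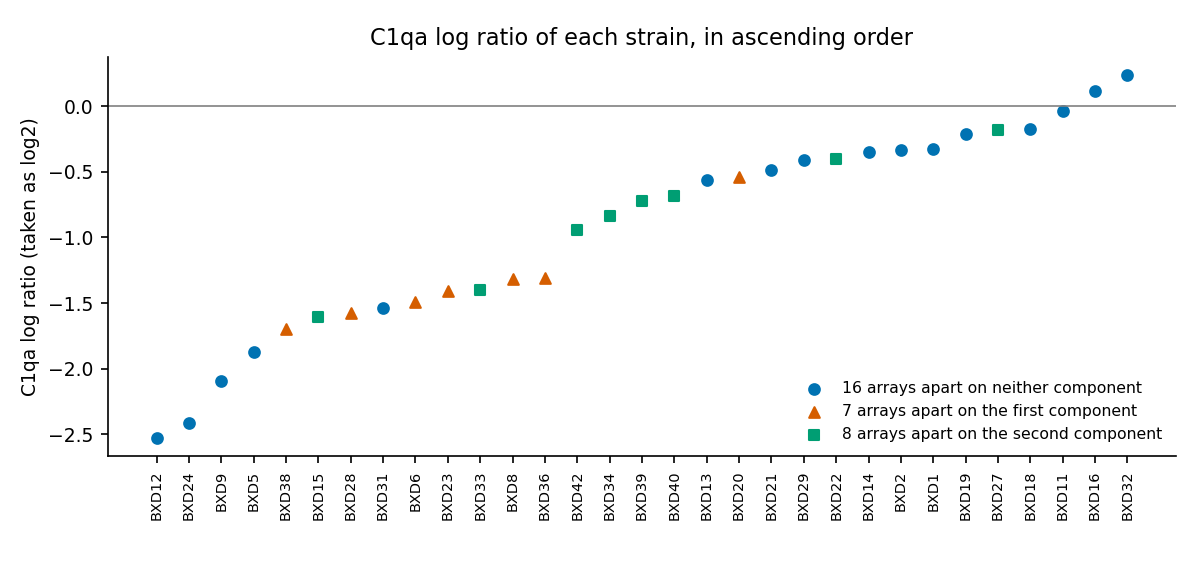
C1qa log ratio (log2, vertical axis) of each strain, in ascending order along the horizontal axis; symbols give the array groups. The 13 lowest strains, at −1.31 or lower, include circles, triangles and squares.

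C1qb, whose gene lies close to C1qa on chromosome 4 with C1qc between them, ran from −0.58 on BXD28 to 0.59 on BXD11, with a median of −0.11. The arrays above 0 numbered 12 of 31, all among the 16 arrays, and the mean of −0.05 ± 0.05 (SE, n = 31) did not pass (limma adjusted p = 0.328). The sign went with the array group only in part, since 4 of the 16 arrays were below 0. The mean was 0.14 ± 0.05 on the 16 arrays alone, where it passed (limma adjusted p = 0.0250, as did 76.1% of features, 40.9% above 0 and 35.2% below it), whereas all values of the 7 arrays lay between −0.58 and −0.18 and all of the 8 between −0.24 and −0.08.

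The correlation between C1qa and C1qb over the strains was 0.239 (Spearman's rho 0.333; permutation p = 0.198, adjusted p = 0.593 over 28 pairs). It was 0.401 without BXD12 and BXD24, the strains farthest from the C1qa median, and 0.0832 with values centred within array groups. C1qc, the third C1q chain, averaged 0.04 ± 0.04 (SE, n = 31; limma adjusted p = 0.439), with a correlation of −0.105 with C1qa and −0.0827 with C1qb. Centred within array groups these became 0.0699 and 0.521. The 3 chains assemble into 1 protein, and their log ratios did not move as 1 set.

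Aif1 ran from −1.27 on BXD20 to 1.09 on BXD32, with a median of 0.14 and 22 of 31 arrays above 0. Its mean of 0.15 ± 0.07 (SE, n = 31) passed narrowly (limma adjusted p = 0.0471). The call was lost when any of 18 strains was left out in turn (BXD1, BXD6, BXD8, BXD12, BXD13, BXD14, BXD16, BXD19, BXD23, BXD24, BXD27, BXD28, BXD29, BXD32, BXD33, BXD36, BXD40 or BXD42; adjusted p up to 0.0904) and when the level of the place was removed (0.08, adjusted p = 0.340). BXD20 stood far below the rest, and without it the mean was 0.20 (adjusted p = 0.00171).

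Ctss ran from −0.92 on BXD8 to 0.02 on BXD27, with a median of −0.34, and was below 0 on 30 of 31 arrays. The mean was −0.38 ± 0.04 (SE, n = 31; limma adjusted p = 2.19e-09), and −0.43 ± 0.04 after the level of the place was removed. Its spread was ordinary, with an SD of 0.25 against a median of 0.27 over named genes. With 1.2-fold as the change to exceed, Tyrobp, Cx3cr1, P2ry12, C1qa and Ctss passed limma's treat test, 5 of 8, where 27.9% of all features did. Cx3cr1 and P2ry12 among these lie at place 8, and with the level of the place removed their means were −0.22 and −0.25. Both are smaller than a 1.2-fold change, and the treat test was not run on those values.

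The second question was whether the microglial genes moved together over the strains. Of 28 pairs, 3 passed a two-sided permutation test with Benjamini-Hochberg adjustment over the pairs. Cx3cr1 and P2ry12 had a correlation of 0.695 (Spearman's rho 0.692; permutation p = 1e-05, the smallest these permutations can give; adjusted p = 0.00028). C1qb was opposed to both, with −0.725 against Cx3cr1 (rho −0.719; permutation p = 3e-05, adjusted p = 0.00042) and −0.595 against P2ry12 (rho −0.646; permutation p = 0.00041, adjusted p = 0.00383). Without the 2 strains farthest from the median these were 0.653, −0.685 and −0.568.

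With values centred within array groups none of the 3 pairs passed, but their sizes differed. Cx3cr1 and P2ry12 had a correlation of 0.511 (permutation p = 0.00687, adjusted p = 0.192), with 0.505 on the 16 arrays, 0.571 on the 7 and 0.647 on the 8. The exact permutation p was 0.180 for the 7 and 0.0889 for the 8. Cx3cr1 and C1qb had −0.346 (permutation p = 0.0880, adjusted p = 0.592), and P2ry12 and C1qb had 0.0669 (permutation p = 0.777, adjusted p = 0.980), with −0.498 on the 8 arrays and 0.0924 on the 16. Tyrobp and Cx3cr1 turned from −0.300 (permutation p = 0.101) to 0.362 (permutation p = 0.0564), neither of which passed the adjustment (0.460 and 0.592).

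**Figure D4:**
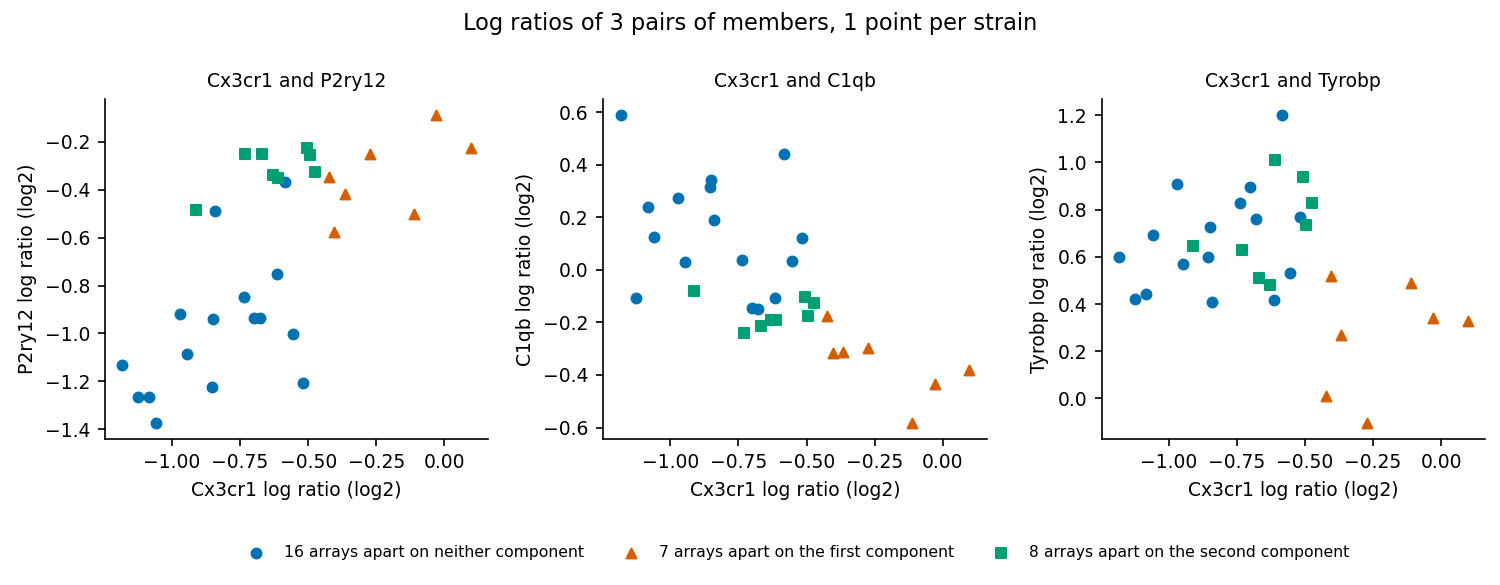
Log ratios (log2) of Cx3cr1 against P2ry12, C1qb and Tyrobp, 1 point per strain; circles, triangles and squares are the 16, 7 and 8 arrays. The 7 arrays take the high end of Cx3cr1 in each panel, and for Tyrobp the correlation is −0.300 over all points and 0.362 once the groups are centred.

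Weaker correlations were common on these arrays. An r past 0.355 in either direction, the value that is nominally past 0.05 for 31 strains, was reached by 4 of 28 pairs of members (14.3%) and by 27.3% of the pairs of all named genes. With array groups centred the same cut was reached by 2 of 28 pairs of members (7.14%), against 11.6% of all pairs. Both of these 2 were positive, a side on which 5.98% of all pairs lay, with 5.6% on the other. The cut was set for values that were not centred, so after centring it is no longer the nominal 0.05 value. The median over the 28 pairs was −0.0180 before and 0.0255 after centring, with 13 and 16 pairs positive. The log ratios of the 8 genes thus did not vary together as a set. Probes of Trem2 with the same accession had correlations with each other of only −0.311, 0.137 and −0.0928 as deposited. Low r between genes therefore cannot show that the genes themselves varied apart, and the reliability of the other probes was not tested. Of all gene pairs, 0.792% reached the r of Cx3cr1 and P2ry12, and 1.18% after centring.

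Cx3cr1 and P2ry12 shared the place of their spots as well as their cell type. Among 1689 genes whose probes all lay at place 8, 3.75% of pairs had an r as high as theirs, and 3.51% after centring within array groups. The median r of Cx3cr1 with these genes was 0.292 and with genes at other places −0.0110; for P2ry12 it was 0.302 and −0.00509. With array groups centred the medians with place 8 were lower, 0.0518 for Cx3cr1 and 0.120 for P2ry12. After the level of the place had been removed on each array the r of Cx3cr1 and P2ry12 was 0.530 (permutation p = 0.0025, adjusted p = 0.0233), and with array groups centred too it was 0.453. Of the pairs of genes at place 8, 7.87% reached the first of these values after the same step. With array groups centred too, 3.59% reached the second.

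**Figure D5:**
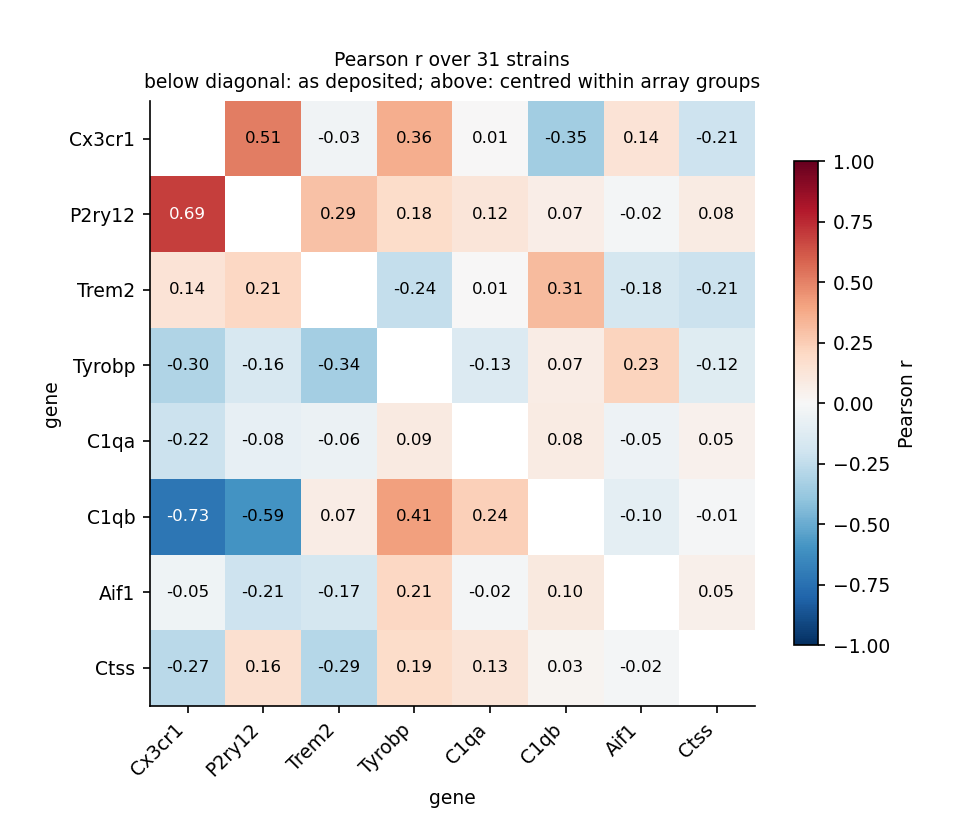
Pearson correlation over 31 strains for each pair of the 8 genes, below the diagonal as deposited and above it with values centred within the 3 array groups. The strongest cells below the diagonal, 0.69, −0.73 and −0.59, become 0.51, −0.35 and 0.07 above it.

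The genes most like each member were found by correlation over the 31 strains after centring within array groups, as a description without a test. For Cx3cr1 they were Gtpbp3 at 0.712 and Pak3, a neuronal kinase, at 0.667, both with a probe at place 8. For P2ry12 they were Acaca, the enzyme that commits carbon to fatty acid synthesis, at 0.817 and Gpr137b-ps at 0.775. Tyrobp was followed by Apol9b at 0.763 and the isoprenoid enzyme gene Fdps at 0.740, but before centring these were 0.160 and −0.0911. C1qa was followed most closely, by Agpat4 at 0.849 and Mrpl57, a mitochondrial ribosomal protein, at 0.848. C1qb had Atf6b at 0.786 and Pld3 at 0.777, Aif1 had Bloc1s4 at 0.764 and the potassium channel gene Kcnc2 at 0.758, Ctss had Tm4sf5 at 0.815 and Kif9 at 0.778, and Trem2 had 1110036E04Rik at 0.718 and Glrp1 at 0.683. None of these 16 genes was in the microglial lists used here, and none lay on the chromosome of the member it resembled.

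Ligands and partners of the members were then described, named for their role and not by the rule for named genes. Cx3cl1, the fractalkine ligand of Cx3cr1, was above 0 on all 31 arrays, from 0.0039 on BXD28 to 1.99 on BXD21, and averaged 0.80 ± 0.10 (SE, n = 31; limma adjusted p = 5.57e-09). Its correlation with Cx3cr1 was −0.429, and 0.0641 with array groups centred. Csf1 and Il34, both ligands of the receptor encoded by Csf1r, lay at place 8. Csf1 averaged −0.22 ± 0.03 (limma adjusted p = 3.03e-07) and Il34 −0.08 ± 0.05 (limma adjusted p = 0.165). Removing the level of the place turned them to 0.20 and 0.34, and both passed with that sign (limma adjusted p = 4.38e-05 and 1.91e-09). Il34 and Cx3cr1 had a correlation of 0.861 and of 0.656 after centring, the highest of any of these partners with a member, named after it was seen. Both probes lie at place 8, where the median r of Cx3cr1 with other genes was 0.292, and 0.0518 after centring. The r of this pair without the level of the place was not taken. The kinase gene Syk, downstream of Tyrobp, had a mean of 0.10 ± 0.05 and did not pass (limma adjusted p = 0.0770), and Hcst, an adaptor related to Tyrobp and its neighbour on chromosome 7, had 0.12 ± 0.04 (limma adjusted p = 0.0110). Hcst did not pass after the level of the place was removed (0.04, limma adjusted p = 0.436) or as a mean of the 3 group means (0.07, limma adjusted p = 0.0918). On the 16 arrays alone Syk passed at 0.14 (limma adjusted p = 0.0111), Hcst at 0.25 (limma adjusted p = 3.77e-05) and Il34 at −0.24 (limma adjusted p = 0.000976).

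Wider lists were read against the 76.1% of all features that passed, 42.1% above 0 and 33.9% below it. Of 40 other microglia and macrophage genes 19 passed above 0 and 12 below it, with a median of 0.06 against 0.04 over all features. Ptprc, the leukocyte phosphatase CD45, had 0.49 ± 0.05 and the lysozyme gene Lyz2 0.37 ± 0.03, while the Toll-like receptor partner Ly86, at place 8, had −0.75 ± 0.05 and Rgs10, a regulator of G protein signalling, −0.33 ± 0.03 (SE, n = 31). After the level of the place was removed Ly86 had −0.33 as well. Cd68, a lysosomal macrophage protein, had 0.41 ± 0.06 over all arrays and 0.15 on the 16, and the integrin gene Itgam, encoding CD11b, had 0.04 ± 0.05 and did not pass (limma adjusted p = 0.513). The median pairwise correlation in this list was 0.0105.

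Of 24 further complement genes 11 were positive and 8 negative, with a median of 0.05. C4b, the C4 component cleaved after C1q binds, had 0.59 ± 0.05 and Cr1l, a complement regulator, 0.69 ± 0.06, both above 0 on all 31 arrays. The anaphylatoxin receptor gene C5ar1, at place 8, had −1.02 ± 0.08 and Hc, encoding complement C5, −0.74 ± 0.07 (SE, n = 31). C5ar1 had −0.60 after the level of the place was removed, and Cr1l had 0.45 on the 16 arrays. Among 18 other cathepsins and inhibitors 8 were positive and 4 negative (5 and 5 after the level of the place was removed), with Ctsf at 0.28 ± 0.03 and the inhibitor gene Cstb at 0.47 ± 0.06 on the one side, and Ctsd at −1.26 ± 0.08 and Ctse at −0.30 ± 0.04 on the other. Ctsd, the main lysosomal aspartic protease, was below 0 on 30 arrays. Cst3, an inhibitor of Ctss, had 0.02 ± 0.05 and did not pass (limma adjusted p = 0.699), whereas on the 16 arrays alone it had 0.14 and passed (limma adjusted p = 0.00638).

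Of 25 ligands and signalling partners, 11 were positive and 6 negative (12 and 4 after the level of the place was removed), with the phosphatase gene Ptpn6 at 0.25 ± 0.02 and the "do not eat me" signal gene Cd47 at 0.23 ± 0.03, and with Pik3cg at −0.42 ± 0.03 and the G protein gene Gnai3 at −0.66 ± 0.05. Cd47 had 0.15 after that step and 0.14 on its first probe alone. Of 13 transcription factors of the microglial lineage 4 were positive and 7 negative, with a median of −0.16. Among all features 42.1% were positive and 33.9% negative, and whether this small list departs from those shares was not tested. Irf8 at −0.53 ± 0.03 lay at place 8 and was −0.11 after the level of the place was removed, whereas Cebpa at −0.35 ± 0.03 and Spi1, the gene for PU.1, at −0.26 ± 0.03 did not lie there. Cebpb had 0.21 ± 0.04 and Irf5 0.19 ± 0.03 (SE, n = 31), which became 0.12 and 0.11 without the level of the place.

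Markers of other cells that a whole brain holds were set beside the microglial genes, and their part in the results was not tested. Of 10 border macrophage and dendritic cell genes 5 were positive and 2 negative. The negative ones were Ms4a7, not at place 8, at −0.44 and Mrc1, at place 8, at −0.71 (−0.29 after the level of the place was removed). Flt3 at 0.31 and Itgax at 0.47 (0.79 on the 16 arrays) were among the positive ones. Of 10 monocyte and granulocyte genes 6 were positive and 3 negative, of 12 lymphocyte genes 5 and 5, and of 5 red cell genes 1 and 3 (0 and 3 after the level of the place was removed). Of 11 endothelial genes 8 were positive and 3 negative, of 11 oligodendrocyte genes 8 and 2, of 11 astrocyte genes 3 and 4, and of 14 neuronal genes 5 and 5. Among all features 42.1% passed above 0 and 33.9% below it, and 38.5% and 35.1% after the level of the place was removed. These lists are short and no set test was run. The mean over the border macrophage list ran from −0.37 to 0.26 on the 7 arrays, from −0.14 to 0.20 on the 16 and from −0.06 to 0.04 on the 8, so its groups overlapped, unlike those of C1qb for the 16 and 7 arrays. The mean over the endothelial list ran from 0.12 to 0.39 on the 7 arrays and from −0.07 to 0.23 on the 16.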

How the data were processed

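Microglial genes and lists were chosen with earlier results of these data known. The authors deposited 1 table of log ratios, taken as log2, for 23040 spots and 31 arrays, of which 0 were missing. R 2.0.0 and limma are named, per the submitters' processing notes, without their role. The sources used here do not give how background, dyes and poor spots were treated. All deposited columns held the same sorted values (largest difference 0; median 0.01, SD 0.60), so no shift of the whole distribution between arrays is left in the values. The number of arrays limits precision; intensities were not used, so no probe could be called dim.

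Symbols came from the platform annotation (16874 probes with 1 symbol, 134 with several, left unnamed, and 6032 with none), and all 8 measured genes matched RefSeq by Entrez identifier. Probes of a gene were averaged, giving 21262 features. Means were tested against 0 with limma 3.58.1 in R 4.3.3 (intercept, eBayes, two-sided, Benjamini-Hochberg over all features at 0.05; treat at 1.2-fold). The reference stands for 1 control sample, so its spread and fixed dye or spot effects are left out, and p-values measure only the spread between the 31 arrays. On simulated data of 21262 features, 67% of 100 features shifted by 0.25 and 96% of 100 shifted by 0.5 were called. The features left unshifted gave 4 false calls. The simulated arrays were drawn independently, without array groups or a level of the place, so these shares need not hold for the real arrays. Correlations used 100000 permutations of the strains, within array groups for centred values, and all orders for the 7 and 8 arrays. Array groups were cut at a score of 0.15. Place is the probe number counted in runs of 8; that it reflects printing is an assumption. Besides all members, the rule for named genes took the 2 genes most correlated with each member and the 2 list genes in each direction with the smallest adjusted p.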

Additional observations from a re-analysis of the deposited data

How the results depend on the processing

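Of the 8 genes, 6 differed from 0. Leaving out 1 strain gave 5 to 7, and the other settings 4 to 7, the 4 being those of the 6 left without place 8. Cx3cr1, P2ry12, C1qa, Ctss and Tyrobp passed with the same sign in every setting that gave them a value. The 16176 features became 5938 against 1.2-fold. The 3 correlated pairs became 0 with array groups centred, 0 on the 16 arrays and 0 with 3 components removed, and stayed 3 without any 1 strain, by Spearman, with places centred and without the 2 farthest strains.

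Signs turned as follows; the cause was not tested. With places centred Trem2 had −0.0058, Csf1 0.20, Il34 0.34 and Cst3 −0.0261. Without the 7 arrays C1qb had 0.0373 and C1qc −0.0336, and on the 16 arrays alone 0.14 and −0.0353. Cst3 was −0.0230 without the 8 arrays and −0.0323 as a mean of group means. With groups centred, on the 16 arrays and with 3 components removed, Tyrobp and Cx3cr1 correlated at 0.362, 0.367 and 0.392, and P2ry12 and C1qb at 0.0669, 0.0924 and 0.224. C1qa and C1qb had −0.0372 with 3 components removed. As a mean of group means Aif1 lost its call (adjusted p = 0.135), and Trem2 (0.0368) and C1qb (0.00101) gained one; centring arrays on their median also ended that of Aif1 (0.0681). Leaving out BXD2, BXD13, BXD14, BXD21, BXD23, BXD28 or BXD39 brought Trem2 past the threshold (adjusted p from 0.0258). No paired analysis was possible because there was 1 group. Signal over background was not used, so what it limits is not given.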

Other observations

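Genes near each member on its chromosome were compared with it over the strains, since BXD lines inherit long stretches from one parent. The 10 measured genes on each side of C1qa had a median correlation of −0.0537 with it (values centred within array groups), against 0.00750 for all named genes, and the highest was Zfp46 at 0.204. For C1qb the median was 0.0744, and Zfp46 reached 0.589. Trem2 had the highest median of the 8 genes, 0.112, with Unc5cl at 0.480, and Aif1, which lies in the major histocompatibility complex, the lowest, −0.0638. P2ry12 followed Sucnr1, a receptor gene in its neighbourhood, at 0.533, and Ctss followed Cers2 at 0.525. The medians over their neighbours were only 0.00233 and 0.0223, and the lowest values were −0.438 for P2ry12 with Serp1 and −0.283 for Ctss with Mcl1. These are descriptions over 31 strains, the neighbours were named for the highest or lowest value after it was seen, and no genotype was used.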
